A study of Mus musculus with 2 samples.

Results

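Sox2 encodes a high-mobility-group transcription factor that keeps embryonic stem cells pluripotent together with Pou5f1 (Oct4) and Nanog. The chromatin loops at and around this gene were taken from a Micro-C loop list of mouse embryonic stem cells. Each loop is a pair of intervals on 1 chromosome, its anchors, whose contact the authors called as a local peak of the contact map. All 4982 loops of the list were searched for those with at least 1 anchor between 34000000 and 36000000 on chromosome 3 of mm10, a window of 2 Mb. There were 7 such loops, or 0.141% of the list, and 3 of them had an anchor that shares at least 1 bp with the Sox2 gene record. The gene (gene ID 20674) occupies 34649995 to 34652461 on the plus strand, so that higher coordinates lie downstream of it.

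The cells were V6.5 cells, a male embryonic stem cell line. Both samples received a control reagent for small interfering RNA, siGLO, at 50 nM, and were collected 48 hours later; they form 1 group of 2 samples, called siControl, and no gene was targeted. The cell type label cannot be set against marker genes, because the list holds no expression values. The list gives 1 set of values for the group and none per sample, so no spread between replicates could be measured and no p-value was computed. The read depth behind the loops is unknown.

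Micro-C crosslinks chromatin, cuts it with micrococcal nuclease between nucleosomes and ligates ends that lie close together in space. In mammalian cells, many focal contacts of this kind form where cohesin, the ring complex that extrudes chromatin loops, is halted by CTCF bound to DNA. Others join promoters to enhancers. In embryonic stem cells the transcription of Sox2 depends on a distal enhancer cluster downstream of the gene, known as the Sox2 control region. The gene itself has no introns and lies within Sox2ot, a long noncoding RNA gene transcribed in the same direction.

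The start of Sox2 lay at the very edge of a loop anchor. A 10 kb anchor (34640001 to 34650000) held the first 6 bases of the gene record, the start included. The abutting 5 kb anchor (34650001 to 34655000) held the remaining 2461 bases of the record. The promoter sequence is shown because it falls at this boundary: of the 300 bases that RefSeq (GRCm38.p6) places around the start, 256 lay in the first anchor and 44 in the second. The stretch in the first anchor, chr3:34649745-34650000 on the plus strand, is printed with the motif matches in capitals. The start is the sixth base from its end.

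Sox2 promoter: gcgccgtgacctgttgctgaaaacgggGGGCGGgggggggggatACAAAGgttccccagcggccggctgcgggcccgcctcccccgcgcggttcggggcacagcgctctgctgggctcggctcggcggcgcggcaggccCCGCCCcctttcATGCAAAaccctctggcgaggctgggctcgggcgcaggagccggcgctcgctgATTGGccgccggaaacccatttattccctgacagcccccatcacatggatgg

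On both strands, 7 motifs were searched. The octamer core ATGCAAA, bound by POU factors such as Oct4, occurred 99 bases before the start, and 4.19% of the 32851 promoter windows of the same length held it. The CCAAT box occurred 46 bases before the start on the minus strand and was found in 34.3% of promoters. The GC box GGGCGG occurred 223 bases before the start on the plus strand and 111 bases before it on the minus strand, and 33.2% of promoters held it. The core ACAAAG, recognised by Sox factors, occurred 206 bases before the start and was found in 16.8% of promoters. No match was found for TATAAA (12.6% of promoters), for the E-box CACGTG (6.22%) or for a core of the CTCF motif (2.12%). These matches did not overlap one another. The stretch had a GC content of 71.9%, against a median of 52.3% over all promoters, and held 27 CpG dinucleotides against a median of 6.

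Sox2 was joined only to sites downstream. The closest, at 34760001 to 34765000, was reached by a loop of 110 kb at 5 kb pixels, from the anchor with the gene body. Its near edge lay 110 kb from the start of Sox2. No gene record of any kind overlapped this site. The nearest listed gene start was that of the lncRNA gene Gm38509, also named Peril, 7.08 kb beyond it. The gene table lists no enhancers, so whether the site overlaps the Sox2 control region was not determined here.

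The other 2 loops of Sox2 were listed at 10 kb pixels and ran from the anchor with its start. The first spanned 460 kb and ended at 35100001 to 35110000. The second spanned 840 kb and ended at 35480001 to 35490000. Neither far anchor overlapped a gene record. The nearest listed starts were those of the lncRNA genes Gm35255, 150 kb from the first, and Gm38512, 74.1 kb from the second. At 10 kb pixels the body of Sox2 falls in the next pixel, from which no 10 kb loop was listed. Which part of the locus carries the contact is therefore known only to the width of a pixel.

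**Figure D1:**
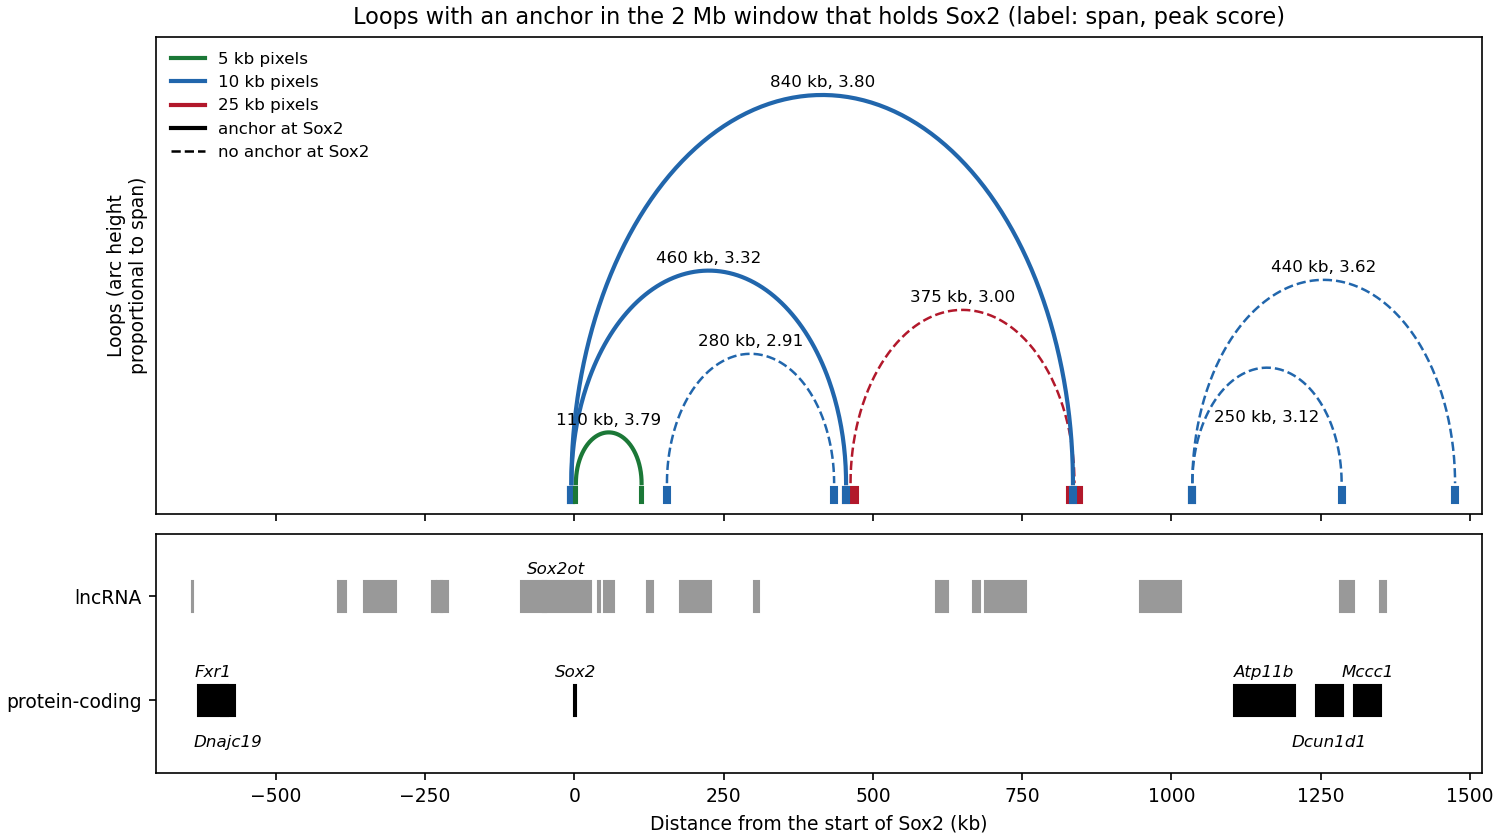
Loops of the window by distance from the start of Sox2 (x axis, kb), with arc height proportional to span, colour for pixel size, and bars under the arcs for the anchors. The lower track shows protein-coding and lncRNA gene records. The 3 solid arcs have an anchor at Sox2 and all run to the right, while no arc starts to the left of the anchors at Sox2.

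The far anchors of the 460 and 840 kb loops were themselves joined. A loop of 375 kb at 25 kb pixels ran from 35100001 to 35125000 to 35475001 to 35500000, and each of its anchors contained a whole far anchor of Sox2. It was the only loop besides those of Sox2 at these sites. Sox2 and the pair of gene-free sites thus formed a closed set of 3 anchors in which every pair was joined by a loop. When anchors that share at least 1 bp were merged, the whole list held 11 such closed sets, and of 1427 cases in which an anchor was joined to 2 others, 2.31% were part of a closed set. The outer span of the Sox2 set was 843 kb. In 4 of the 11 sets each of the anchors overlapped a protein-coding gene record, and the Sox2 set was 1 of 3 with such a record at exactly 1 anchor.

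Judged at anchor midpoints, a single loop without an anchor at Sox2 was nested inside the Sox2 loops. It spanned 280 kb, from 34800001 to 34810000 to 35080001 to 35090000, inside both the 460 and the 840 kb loops. Its lower anchor began 35 kb beyond the far anchor of the 110 kb loop, and its upper anchor ended 10 kb before the far anchor of the 460 kb loop. Neither anchor overlapped a gene record. The 110 kb loop was in turn nested in both longer loops of Sox2, whose anchor abuts its own. The 375 kb loop was not counted as nested in the 840 kb loop, by a margin smaller than a pixel. Its upper midpoint lay 837.5 kb from the start of Sox2, and that of the 840 kb loop lay 835 kb from it.

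No loop of the list crossed a Sox2 loop without sharing an anchor with it, and no loop besides those of Sox2 enclosed any of them. None ran over the whole window with its anchors outside. Within the 840 kb loop lay 9 whole gene records, of which 8 were lncRNA genes (Gm34941, Gm3143, Gm38509, Gm21388, Gm35255, 1700017M07Rik, Gm35425 and Gm38512) and 1 was the microRNA gene Mir6378. None was protein-coding, and none overlapped an anchor. Sox2 was thus the only protein-coding gene within or at the ends of its loops.

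The scores of the caller were used to rank the loops within the list. The peak score, which has no unit, was 3.79 for the 110 kb loop, 3.32 for the 460 kb loop and 3.80 for the 840 kb loop. Among loops of the same pixel size these stood at percentiles 11.8, 16.1 and 40.7, below the median in each case. The median peak score was 4.88 over the 1265 loops of 5 kb pixels and 3.996 over the 3047 loops of 10 kb pixels. The 110 and 840 kb loops had nearly the same score but differed in rank because their pixel sizes differ. Against loops of the same pixel size and a span within 1.5 times their own, the percentiles were 14.7, 14.4 and 27.2.

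The other 4 loops scored low as well. The nested 280 kb loop had a peak score of 2.91 (percentile 2.87), the lowest of the window. The 375 kb loop that joins the far anchors had 3.004 (percentile 7.69 of the 670 loops of 25 kb pixels). The pair of loops farther downstream, from the anchor at 35680001, had 3.12 and 3.62 (percentiles 8.45 and 31.3). All 7 loops of the window thus had peak scores below the median of their pixel size, and the median over them was 3.32 against 4.16 for the whole list.

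**Figure D2:**
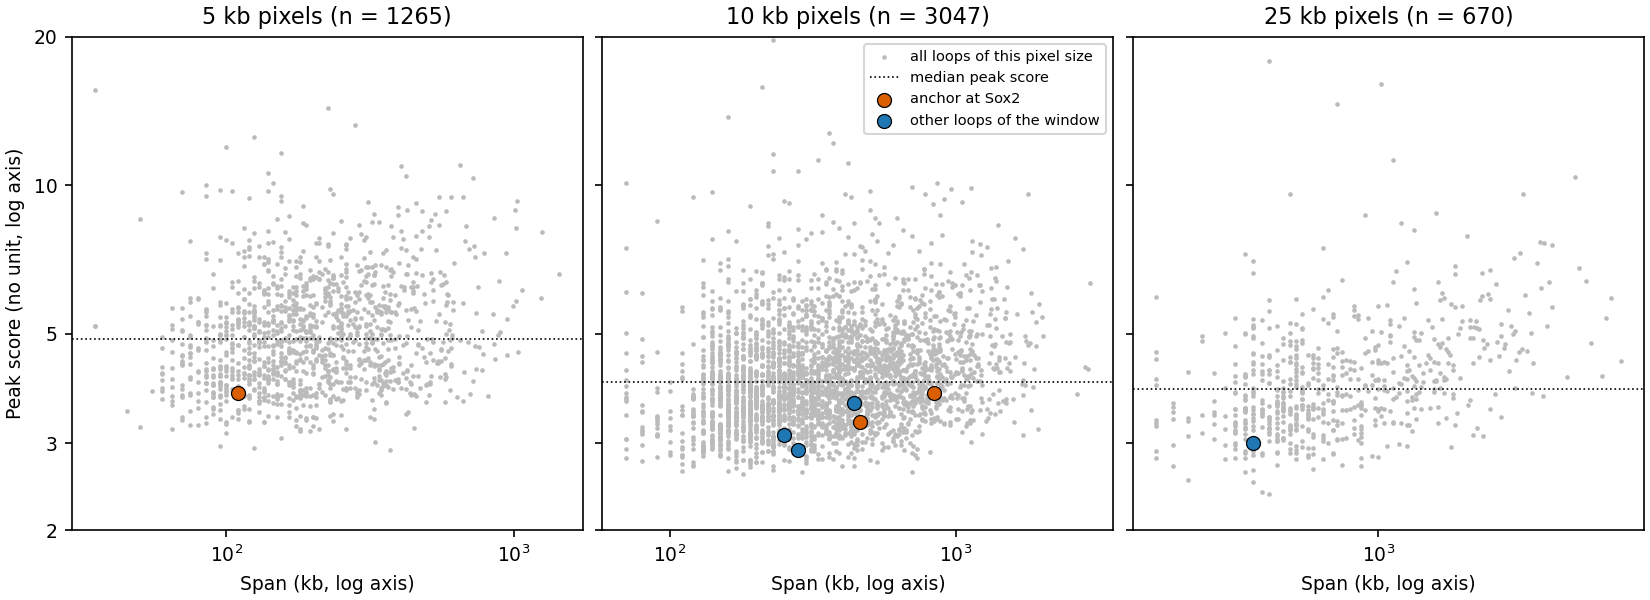
Peak score (y axis, no unit, log axis) against span (x axis, kb, log axis) for all loops of 5, 10 and 25 kb pixels, with the dotted line at the median score of each pixel size. Orange points have an anchor at Sox2 and blue points are the other loops of the window; all 7 lie below the dotted lines. The 10 loops with scores above 20 are not drawn.

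The deposited peak pixel, the value of the contact map at the loop, was 3.68 for the 110 kb loop, 6.53 for the 460 kb loop and 7.57 for the 840 kb loop. Pixels of different size do not hold the same amount of contact, so only the latter 2 can be set side by side. The longer loop had the higher value, as it had by the peak score. How the map was normalized is not given, so these values do not tell which site Sox2 contacts more often. Loops of 10 kb pixels with spans near 460 and 840 kb had median peak pixels of 6.67 and 6.58. The 840 kb loop stood at percentile 70.6 of those near its span and the 460 kb loop at 47.3. The 110 kb loop stood at percentile 13.9, with a median of 4.53 over 487 loops near its span.

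The mean of the 3 by 3 block of pixels around the peak was 2.43, 4.39 and 4.77 for the loops of 110, 460 and 840 kb. The peak pixel was therefore 1.52, 1.49 and 1.59 times its block, at percentiles 28.3, 35.1 and 57.3 of the pixel size. The probability-like value of the caller was 1, 0.999 and 0.999, at percentiles 76.4, 52.8 and 74.1. By this value the Sox2 loops thus stood above the median of their pixel size, unlike by the peak score. Those medians were 0.99963 at 5 kb and 0.99836 at 10 kb pixels. The values therefore crowd near the top of the scale, and small differences set these ranks. The nested 280 kb loop had 0.981, at percentile 1.23 of its pixel size. Its peak pixel of 5.89 was 1.42 times its block. The 375 kb loop had a peak pixel of 14.6 and a block mean of 11.7, a ratio of 1.24 at percentile 8.73.

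The regional peak score placed the Sox2 loops in another order. It was 2.39 for the 110 kb loop, which put it at percentile 42.02, and 1.89 for both longer loops, at percentiles 11.8 and 13.1. The 110 kb loop was thus the highest of the 3 by the regional score and the lowest of them by the percentile of its peak score. None of the 3 was above the median of its pixel size by either score.

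**Figure D3:**
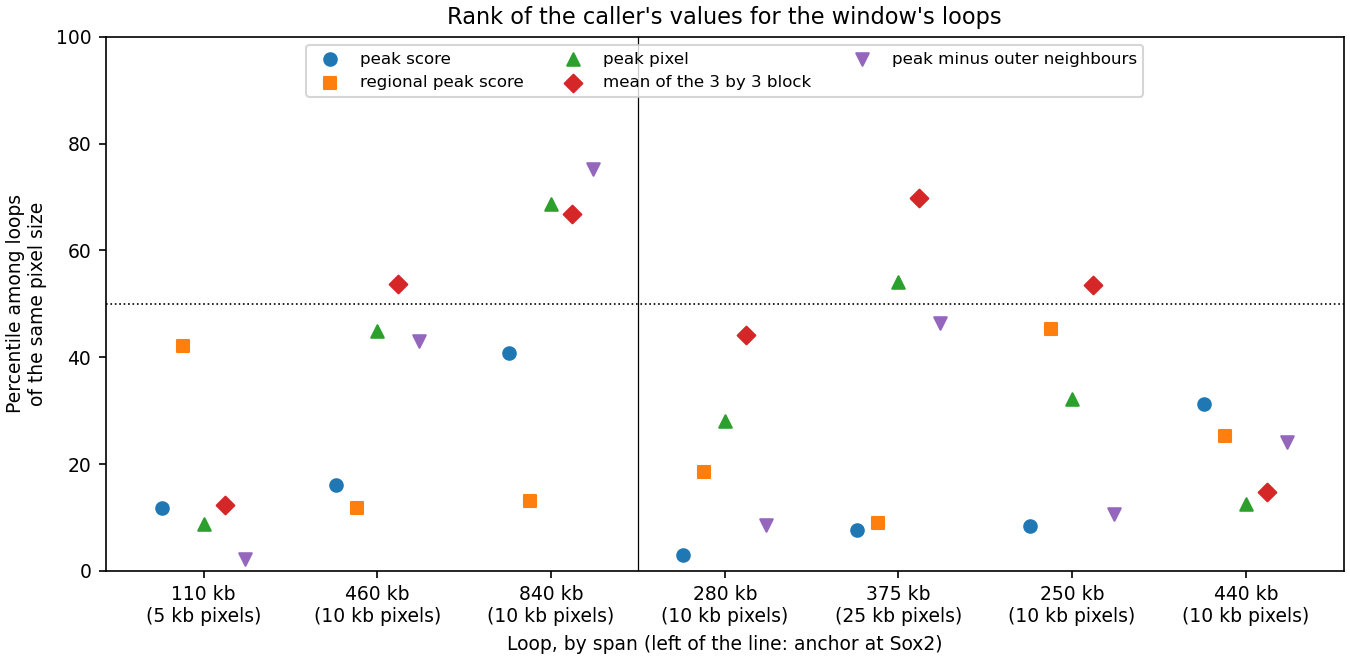
Percentile of 5 deposited values among loops of the same pixel size (y axis) for each loop of the window (x axis, named by span), with the 3 Sox2 loops left of the vertical line and the dotted line at the median. Peak scores and regional scores lie below the median for all 7 loops, while the peak pixel lies above it for the 840 and 375 kb loops. Against loops near the same span (not drawn), the peak pixel percentile was 70.6 for the 840 kb loop and 33 for the 375 kb loop.

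Upstream of Sox2 no anchor was listed for a long stretch. The next anchor toward lower coordinates ended at 33775000, 865 kb before the anchor with the start of Sox2. The median gap between neighbouring merged anchors of the list was 135 kb, and this gap was longer than 94.1% of 8720 gaps. It held 17 whole gene records, 4 of them protein-coding: Ttc14, Ccdc39, Fxr1, which encodes an RNA-binding protein, and Dnajc19, which encodes a cochaperone of mitochondrial protein import. It also held 9 lncRNA genes. On the other side, 180 kb separated the far anchor of the 840 kb loop (with the wider anchor of the 375 kb loop) from the next anchor.

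That next anchor, at 35680001 to 35690000, began 2 further loops, both at 10 kb pixels and both running downstream. The first spanned 250 kb and ended at 35930001 to 35940000. This anchor held the listed starts of Dcun1d1, which promotes the neddylation of cullins, and of the lncRNA gene Gm15952 on the opposite strand. The second spanned 440 kb and ended outside the window at 36120001 to 36130000, where no gene record overlapped it. Neither shared an anchor with a Sox2 loop or overlapped its interval. Atp11b, a phospholipid flippase gene, lay within both without touching an anchor. The peak pixels were 6.06 for the 250 kb loop and 5.20 for the 440 kb loop.

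The start of Dcun1d1 closest to Gm15952 lay at 35932966 and that of Gm15952 at 35933078. The 111 bases between them, chr3:35932967-35933077 on the plus strand, are shown because this was the only other place in the window where listed gene starts lay in an anchor. They held 1 match of the 7 motifs, a GC box, in capitals, and had a GC content of 80.2%. They lie within the record of Dcun1d1, which runs on to 35937472 and overlaps that of Gm15952.

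Dcun1d1 to Gm15952: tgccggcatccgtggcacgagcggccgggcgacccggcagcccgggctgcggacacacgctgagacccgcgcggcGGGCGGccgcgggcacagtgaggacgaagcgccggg

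The window had 9 merged anchors, of which 2 held a listed gene start, against 15% of the 8740 merged anchors of the list. Of the 9, 6 shared no base with a gene record of any kind, against 33% in the list. These 6 included all far anchors of Sox2. By number of protein-coding genes the window stood at percentile 27.5 of the 2 Mb windows, and 9 anchors are few. No trait of the Sox2 loops is therefore read from this share. Of the 34 genes of the window, 4 overlapped an anchor: Sox2, Sox2ot, Dcun1d1 and Gm15952. Sox2ot spans 34560381 to 34677993 and so overlapped the same 3 loops as Sox2.

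In number of loops the window was in the upper part of the list. Of 1320 windows of 2 Mb that hold a gene, 384 (29.1%) had 7 or more loops. The median was 4 and the quartiles were 2 and 7. The window had 6 protein-coding genes, and the 295 windows with a number within 2 of that had a median of 4 loops as well.

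Counted by an overlap of at least 1 bp, Sox2 had many loops for so short a gene. Of 21631 protein-coding gene records, 17.7% shared a base with an anchor and 1.36%, or 295 genes, did so with 3 loops or more. Sox2, with a record of 2467 bp, was the shortest of these 295, whose median length was 224035 bp. Longer records have more room for anchors. Among 1661 records of a length within 1.5 times that of Sox2, 6.26% overlapped an anchor and 0.361%, or 6 genes, had 3 loops or more. The other 5, each with 3 loops, were Gm2102, Hoxd13, Neurog2, Dbpht2 and Fam43a. Hoxd13 patterns the limb and Neurog2 is a factor of nerve cell formation. When an end of the record had to lie in the anchor, 35 genes (0.162%) had 3 loops or more, Sox2 among them. The place of Sox2 in these counts rests on the 1 bp rule. The anchor of 2 of its loops held only 6 bases of its record. When at least 50% of the record had to lie in the anchor, Sox2 kept 1 loop. That count is not given here for the other genes.

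**Figure D4:**
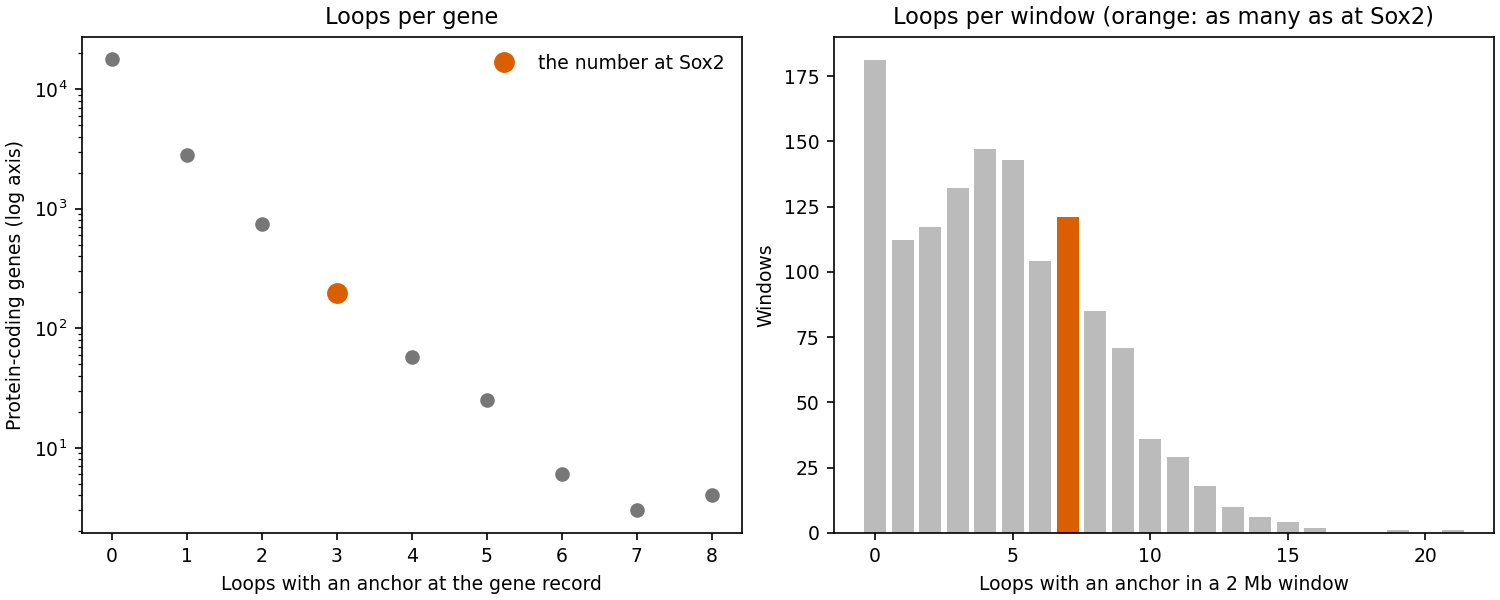
Left, protein-coding genes (y axis, log axis) by the number of loops with an anchor at the gene record (x axis). Right, windows of 2 Mb by the number of loops with an anchor in them. Orange marks the value of Sox2, 3 loops, shared by 199 genes, and of its window, 7 loops, shared by 121 windows.

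The genes closest to Sox2 in the pattern of their loops were found by span. Of the 199 genes with 3 loops, 82 had all of them on 1 side, Sox2 included. They were ranked by the sum, over the 3 sorted spans, of the absolute differences of log2 span from Sox2. Neither the side to which the loops ran nor the strand of the gene was matched to Sox2. Rgs22, with loops of 160, 470 and 860 kb, was nearest at 0.61. It was followed by Ttc27 (1.24), Tnpo1 (1.29), Ripor2 (1.32) and Nkx2-1 (1.33). The loops of Rgs22 and Ripor2 ran to lower coordinates, while those of Sox2, Ttc27, Tnpo1 and Nkx2-1 ran to higher ones. Nkx2-1, a homeobox gene of forebrain, lung and thyroid, had loops of 160, 660 and 1010 kb and, like Sox2, belonged to a closed set of 3 anchors. Its record of 4974 bp was the only one of the 5 under 10 times the length of Sox2.

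The 4 other SoxB genes and 10 further pluripotency genes that were counted had at most 1 loop each. Of the 4 remaining SoxB genes, the subfamily to which Sox2 belongs, Sox3 overlapped an anchor, with 1 loop of 375 kb (peak score 3.88). Sox1, Sox14 and Sox21 overlapped none. Of 10 other pluripotency genes 3 overlapped an anchor, with 1 loop each: Klf4 (1160 kb), Tbx3 (1425 kb) and Zfp42 (1625 kb). Pou5f1, Nanog, Esrrb, Tfcp2l1, Prdm14, Sall4 and Nr5a2 overlapped none. Each of these 3 loops was longer than the longest loop of Sox2. The lists are short, and 17.7% of all protein-coding genes overlap an anchor, so no difference from other genes is read from them.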

How the data were processed

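Micro-C libraries were made from 2 samples of 1 group. Per the submitters' processing notes, Juicer 1.5.6 and build mm10 were used. How loops were called, how the map was normalized and whether samples were pooled is not given in the sources used here. No header names the columns. The authors deposited, per loop, 2 anchors, a peak score and a regional peak score, a probability-like fraction, and the signal of the contact map at the peak pixel. These meanings were inferred from column order, which matches that of the SIP caller, and from the values. Further deposited columns, treated as scores, hold the mean of the 3 by 3 block and the height of the peak above its neighbours.

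Positions were made 1-based. Span is the distance between anchor midpoints. A percentile is the share of loops with a lower value, ties counted at 50%. Nested, crossing and enclosing were judged at anchor midpoints. Gene records and starts came from RefSeq tables of GRCm38.p6, the assembly named mm10; 17274 protein-coding genes had a listed start. Promoter sequences, 250 bases before to 50 after each listed start, came from the RefSeq promoter table of the same assembly; no whole genome was used. Counting functions were tested on simulated loops. Python 3.11.15 and pandas 2.3.3 were used.

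The members, lists and comparisons were chosen with earlier results of these data known. Named genes are those at the window's anchors or inside the widest Sox2 loop, 2 short lists, and the 5 genes most alike in loop spans. The genes of the gap, of the other short records and of the second loop pair's interval were chosen after their values were seen. Alternatives covered anchor width, pixel size, score, window and positions.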

Additional observations from a re-analysis of the deposited data

How the results depend on the processing

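No paired analysis was possible because the deposited list carries 1 set of values and none by sample; no fit without a given replicate could be made either. The 3 loops at Sox2 were also counted with anchors widened by 5 or 10 kb; 1 was left when at least 50% of the record had to lie in the anchor, 1 at 5 kb pixels alone and 0 above the median peak score of the pixel size. An alternative chosen after seeing the data, the start of Sox2 in the anchor, gave 2. Of the 7 loops of the window, 1 was of 5 kb and 1 of 25 kb pixels, and 0 were above the median score. With anchors widened by 10 kb, 2 rather than 1 other loops shared a far anchor of Sox2, the nested loop being the second. Outer edges in place of midpoints changed no count of nested, crossing or enclosing loops. The peak score percentiles of the 110, 460 and 840 kb loops (11.8, 16.1 and 40.7) were 33.8, 13.2 and 34.3 among all loops, 42.02, 11.8 and 13.1 by the regional score, and 14.7, 14.4 and 27.2 near the same span. The order of the 3 loops thus depends on the measure, and all stayed below the median in these 4 settings. Genes with 3 loops or more numbered 35 rather than 295 when an end of the record had to lie in the anchor. The depth is unknown, and positions are known only to 1 pixel.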
